A study of Mus musculus with 8 samples.

Results

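Tri-PyMT cells labelled RFP+ were split by whether their S100a4 transcript was counted. Cells with at least 1000 counts from the 2 libraries labelled RFP+ were taken, and those with 2 or more raw S100a4 counts were set against those with 0. The table holds 7400 cells of all populations, and 2968 of the RFP+ labelled cells had at least 1000 counts. Among these, 778 had 2 or more S100a4 counts (413 in library 1 and 365 in library 2) and 1349 had 0 (703 and 646). The other 841 had exactly 1 count and were in neither class. The cells were thus chosen by their S100a4 count, so the S100a4 values below are a description and no test is made on them.

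S100a4, also called Fsp1, encodes a small calcium-binding protein of the S100 family that binds non-muscle myosin and is linked to cell motility and metastasis. It is abundant in fibroblasts and macrophages, and in carcinoma cells it is widely used as a marker of the epithelial to mesenchymal transition, in which cells lose keratins and junction proteins and gain vimentin and matrix proteins. In Tri-PyMT cells the same promoter has a further role: it drives the Cre recombinase that switches the reporter of the cell.

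All cells came from the Tri-PyMT line, made from the primary metastatic breast tumor of a mouse that carried the MMTV-PyMT, Fsp1-cre and Rosa26mT/mG transgenes, and grown in DMEM with serum. The MMTV promoter drives the polyoma middle T oncogene in mammary epithelium, and every cell carries the oncogene, Fsp1-cre and the Rosa26mT/mG reporter, which makes a membrane-bound red protein until Cre cuts its cassette out and a green one afterwards. The age of the mouse and the number of animals behind the line are not given in the labels. Cells were sorted by fluorescence into an RFP+ and a GFP+ population, and polyadenylated RNA of single cells was captured by Drop-seq, in which a cell shares a droplet with a barcoded bead. The labels list 8 samples, since each of the 4 libraries, 2 RFP+ and 2 GFP+, ran on 2 lanes, and the lanes of a library stand pooled in the count table. The library, 2 per population, is therefore the replicate. The labels do not give whether libraries were made from cultures grown apart. Library was a block in the fit, so a p-value here does not measure spread in level from library to library. It rests on counting error and on a dispersion taken from the trend over genes. What spread it does cover may be technical.

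Among RFP+ labelled cells, 1545 and 1423 of 2000 in each library had at least 1000 counts. The summed depth was 809730 and 757491 counts in cells with S100a4, and 1130216 and 1047263 counts in cells without it. The reporter rows go against the sort label: in the cells with at least 1000 counts, the libraries labelled RFP+ had a CUSTOM_GFP count in 58.5% and 58.1% of cells and a CUSTOM_RFP count in 19.9% and 18.9%, while those labelled GFP+ had a CUSTOM_RFP count in 97.0% and 97.8%. All groups are therefore named by their labels. Over the 4 libraries, 2 cell barcodes occurred in more than 1 library.

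The promoters of S100a4 and of some called genes are shown for the letters they hold around the start of transcription (RefSeq, GRCm38.p6, 250 bases before to 50 after the start, on the strand of the gene). Capitals mark TATAAA on the strand of the gene, the TATA box core, and CACCTG or its complement CAGGTG, the core that the repressors of the Snai and Zeb families are known to bind. The promoters are those of S100a4 (chr3:90603520-90603819, plus strand), Vim (chr2:13574061-13574360, plus), Epcam (chr17:87635729-87636028, plus), Rab25 (chr3:88548230-88548529, minus) and Lsr (chr7:30973420-30973719, minus).
S100a4: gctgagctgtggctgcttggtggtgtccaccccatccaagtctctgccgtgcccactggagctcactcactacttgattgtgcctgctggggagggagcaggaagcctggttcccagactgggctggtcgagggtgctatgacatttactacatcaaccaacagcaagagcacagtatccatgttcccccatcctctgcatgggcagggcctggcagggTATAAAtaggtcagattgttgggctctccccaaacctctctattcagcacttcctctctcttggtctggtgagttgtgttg
Vim: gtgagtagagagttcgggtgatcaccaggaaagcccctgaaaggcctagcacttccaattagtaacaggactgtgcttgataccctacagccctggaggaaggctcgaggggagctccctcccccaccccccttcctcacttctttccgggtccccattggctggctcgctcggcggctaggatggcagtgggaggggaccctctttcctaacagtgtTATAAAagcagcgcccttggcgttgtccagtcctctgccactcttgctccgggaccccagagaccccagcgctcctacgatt
Epcam: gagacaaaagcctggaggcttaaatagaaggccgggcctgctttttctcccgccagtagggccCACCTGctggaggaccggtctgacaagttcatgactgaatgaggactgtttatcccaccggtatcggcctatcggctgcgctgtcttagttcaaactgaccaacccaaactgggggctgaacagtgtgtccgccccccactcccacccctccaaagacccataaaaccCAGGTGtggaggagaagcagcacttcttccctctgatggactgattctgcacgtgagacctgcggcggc
Rab25: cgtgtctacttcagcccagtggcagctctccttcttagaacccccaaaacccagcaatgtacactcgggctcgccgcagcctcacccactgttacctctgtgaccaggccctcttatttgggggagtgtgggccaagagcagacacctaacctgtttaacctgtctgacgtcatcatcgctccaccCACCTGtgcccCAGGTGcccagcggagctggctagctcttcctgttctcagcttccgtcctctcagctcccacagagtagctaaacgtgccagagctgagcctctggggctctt
Lsr: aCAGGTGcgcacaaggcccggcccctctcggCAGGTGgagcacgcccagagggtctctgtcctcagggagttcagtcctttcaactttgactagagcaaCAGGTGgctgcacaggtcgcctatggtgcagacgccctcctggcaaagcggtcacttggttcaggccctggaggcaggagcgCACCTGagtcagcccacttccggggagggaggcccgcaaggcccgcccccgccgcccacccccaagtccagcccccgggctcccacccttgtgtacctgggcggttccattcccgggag

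S100a4 and Vim, the gene of the mesenchymal intermediate filament, each hold TATAAA, 31 and 32 bases before the start. Epcam, Rab25 and Lsr hold no TATAAA in this window and 2, 2 and 4 copies of the other motif. Other called genes differ from those shown. Of the higher genes, Sparc, Bmp4, Spp1 and Fth1 hold CACCTG or CAGGTG in a window. Of the lower genes, Krt14, Lad1, Lcn2 and Cdc42ep3 hold neither motif, and Krt8 holds both. Motifs were counted over all genes called in the comparison below that had a promoter entry. CACCTG or CAGGTG was present in 16 of 31 genes lower with S100a4 and in 11 of 41 higher genes (51.6% and 26.8%). The shares were 18.1% of 4400 tested genes and 22.6% of all 27025 genes in the promoter table. TATAAA was present in 6.45% of the lower and 22% of the higher genes, against 5.32% of tested genes and 9.77% of all. A gene with several listed starts has several windows, and it counts as holding a motif where any of them does, while each of the 5 genes shown has 1. These are descriptions of letters, with no test, and a match is not a binding site.

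By rule, cells without S100a4 had 0 counts of it. Cells with it had up to 19 counts in library 1 and 32 in library 2, and S100a4 made up 1563 and 1699 of 1000000 counts there. At the lower limit, 207 and 172 cells had exactly 2 S100a4 counts, and just outside it 429 and 412 cells had exactly 1. At the limit on depth, 263 and 241 RFP+ labelled cells lay within 100 counts above it and 235 and 240 within 100 counts below it, which kept them out.

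A class made from counts is also a class of depth. Cells with S100a4 had a median of 1544 and 1689 counts, against 1322 and 1397 in cells without it. In 4 groups of cells of rising depth, the share with 2 or more S100a4 counts was 17.8%, 24.5%, 27.3% and 37.3% in library 1 and 15.2%, 23.03%, 25.4% and 39.0% in library 2. The share with 0 was 52.2% in the shallowest group and 37.0% in the deepest in library 1, and 51.7% and 33.7% in library 2. A count of 0 need not mean that the transcript was absent, and cells without S100a4 are so named by their counts. When each cell was thinned to 1000 counts, 14.8% of the cells with S100a4 in each library read 0. Thinned cells held a median of 692 and 690 detected genes in the class with S100a4, against 695 and 695 in the class without it. In all counts of a class, mitochondrially encoded transcripts made up 0.619% and 0.523% with S100a4 and 0.559% and 0.554% without it. Levels below are in CPM, counts per 1000000 of the summed counts of a class in a library, with S100a4 itself taken out of the sums.

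The comparison asked how the rest of the transcriptome differs between cells in which S100a4 was and was not counted within the RFP+ labelled population. Cells with S100a4 had more Vim, Spp1, Fth1, S100a6, Sparc, Mgp and Bmp4 and less Epcam, Wfdc2, Krt7, Ly6a and Ccl5. Of 5785 genes tested with edgeR, 51 were higher in cells with S100a4 (0.882%) and 47 were lower (0.812%), together 1.69%, with the adjusted p below 0.05. Few folds were large. A 1.5-fold difference was reached by 11 genes that were higher and 23 that were lower, and a 2-fold difference by 5 and 6. Scaling to library totals with no TMM gave 43 higher and 62 lower genes, and taking transcript length into account gave 34 and 46. All 98 called genes had the same sign in both libraries, while 29.6% of all tested genes were higher and 28.0% lower in both. In 96 of the 98 the 2 classes did not overlap over the libraries, which was also so for 17.4% of tested genes in the higher and 23.6% in the lower direction. Since the 98 were called on these same libraries, neither count is a separate check of the calls. Classes set against each other at equal depth, each cell with S100a4 beside the cell without it of nearest total, gave 66 higher and 57 lower genes, among them 85 of the 98.

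**Figure D1:**
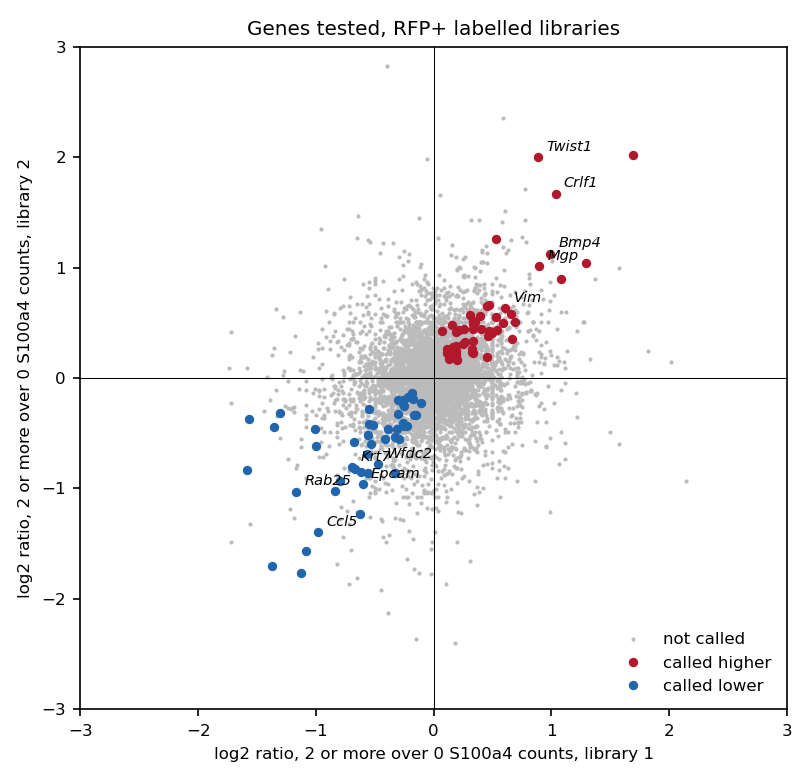
Each point is a tested gene of RFP+ labelled cells, with the log2 ratio of cells with 2 or more S100a4 counts over cells with 0 in library 1 (x axis) and in library 2 (y axis); red and blue points are the 51 higher and 47 lower called genes and grey points are not called. All 98 called genes lie lower left or upper right, with the same sign in both libraries.

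These counts depend on the tool and on depth. DESeq2's Wald test called 4 genes higher (Vim, Fth1, S100a6 and Spp1) and 2 lower (Wfdc2 and Epcam), and edgeR without a filter on low genes called 0 in either direction, with 560 of 13963 genes at an unadjusted p under 0.05. Thinning every cell to 1000 counts, with classes taken from the thinned counts, left 8 higher and 5 lower genes: Vim, Spp1, Fth1, S100a6, Bmp4, Tm4sf1, Sparc and Vps29, and Wfdc2, Epcam, Ly6a, Krt7 and Rangap1. Tm4sf1, Vps29 and Rangap1 are named after their values were seen. In each of these settings all 98 genes kept their direction.

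Of 26 tested genes of the mesenchymal list 7 were higher in cells with S100a4, none was lower and 19 did not pass, with a median log2 fold of 0.10 beside 0.01 over all tested genes. The 7 were Vim, Sparc, Mgp, Timp1, Timp2, Lgals1 and S100a6. Of all tested genes 0.882% were called higher and 0.812% lower. Vim (chromosome 2, 13573927 to 13582826) was at 2396 and 2234 CPM in cells with S100a4, against 1591 and 1478 CPM in cells without it. Every library had more Vim in the class with S100a4, and the lowest value with S100a4 was above the highest without it. The log2 fold was 0.62 ± 0.05 (SE), with an edgeR adjusted p of 1.21e-28.

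Sparc, a secreted glycoprotein that binds collagen (chromosome 11, 55394500 to 55423183), was at 494 and 465 CPM with S100a4 and 333 and 338 CPM without it. The classes did not overlap, and the log2 fold was 0.55 ± 0.08 (edgeR adjusted p = 1.7e-08). Mgp, matrix Gla protein, an inhibitor of calcification that binds bone morphogenetic proteins, was at 139 and 152 CPM with S100a4, against 75.2 and 77.3 CPM without it. The classes did not overlap, and the log2 fold was 0.96 ± 0.16 (adjusted p = 4.77e-07). In cells thinned to 1000 counts Mgp was not called, with classes from raw or from thinned counts. The inhibitors of metalloproteinases Timp1 and Timp2 had log2 folds of 0.32 ± 0.07 and 0.22 ± 0.05 (edgeR adjusted p of 0.00164 and 0.00579). Lgals1, galectin-1, had a log2 fold of 0.15 ± 0.05 (adjusted p = 0.0385), which fell to 0.06 (adjusted p = 0.43) when the fit took transcript length into account.

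Other classic members did not pass. Fn1, fibronectin, was at 110.1 and 91.2 CPM with S100a4 and 87.6 and 86.9 CPM without it (log2 fold 0.24 ± 0.16, edgeR adjusted p = 0.605). Cdh2, N-cadherin, was at 70.5 and 60.8 CPM against 69.9 and 58.2 CPM (0.06 ± 0.19, adjusted p = 0.943), and its classes overlapped. Emp3, a small membrane protein gene, was at 63.1 and 67.4 CPM with S100a4 and 38.9 and 45.8 CPM without it, and its log2 fold was 0.65 ± 0.21 (edgeR adjusted p = 0.0892). Fibrillar collagen was hardly seen: Col1a1 had 0 counts in both classes of both libraries, and Col1a2 had 3 and 2 counts with S100a4 and 2 and 0 without it, too few to test.

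Bmp4 and Spp1 stand outside that list. Bmp4, a bone morphogenetic protein (chromosome 14, 46383520 to 46390669), was at 125 and 122 CPM in cells with S100a4, against 63.7 and 57.3 CPM in cells without it. Both libraries gave about the same ratio, and the log2 fold was 1.05 ± 0.17 (edgeR adjusted p = 3.1e-07). Spp1, osteopontin, a secreted ligand of integrins and Cd44 (chromosome 5, 104435118 to 104441050), was at 1869 and 1822 CPM with S100a4 and 1382 and 1193 CPM without it, a log2 fold of 0.55 ± 0.05 (adjusted p = 1.64e-20).

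Igfbp4, which binds insulin-like growth factors, was also higher, with a log2 fold of 0.49 ± 0.10 (edgeR adjusted p = 0.000495). Sh3kbp1, an adaptor of receptor endocytosis, had 0.54 ± 0.13 (adjusted p = 0.00627). Cdca7, a chromatin-associated Myc target, and Ugdh, which makes the precursor of hyaluronan, had 0.60 ± 0.17 and 0.52 ± 0.15 (adjusted p of 0.0262 and 0.037), and Ugdh had 0.52 with an adjusted p of 0.0511 when length was taken into account. Named after their values were seen, the caveolin gene Cav1 and the tetraspanin-like Tm4sf1 had log2 folds of 0.42 ± 0.09 and 0.29 ± 0.05 (edgeR adjusted p of 0.000622 and 1.94e-05).

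**Figure D2:**
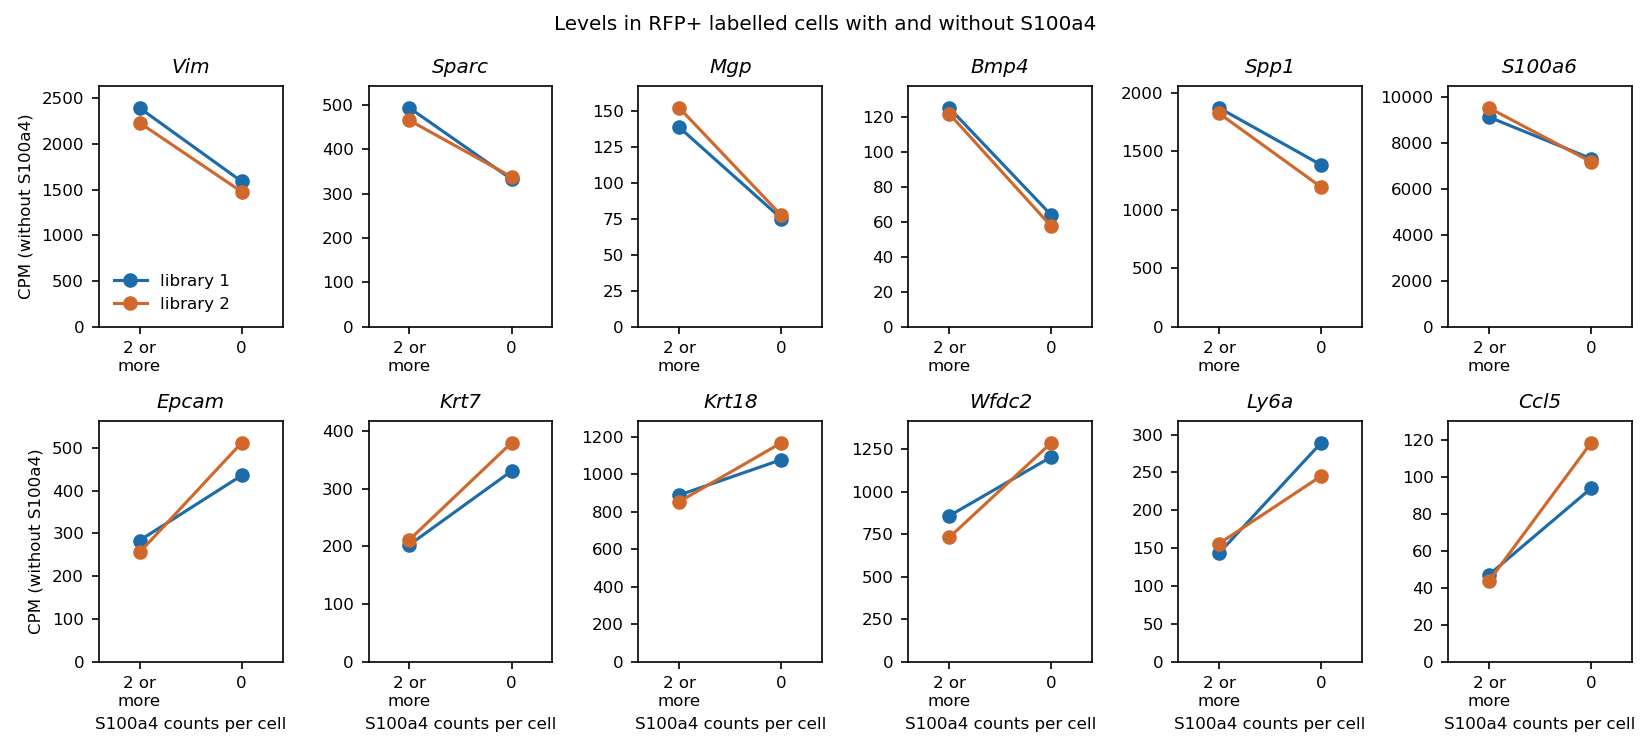
CPM (linear axis from 0) of 12 genes in RFP+ labelled cells with 2 or more S100a4 counts (left) and with 0 (right); each line joins the classes of 1 library. The 6 genes of the upper row were higher and the 6 of the lower row lower with S100a4 in both libraries, such as Vim at 2396 and 2234 CPM against 1591 and 1478 CPM.

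Of 28 tested genes of the epithelial list 10 were lower in cells with S100a4 (Epcam, Krt7, Krt8, Krt14, Krt18, Wfdc2, Rab25, Lsr, Lcn2 and Esrp1), 1 was higher and 17 did not pass. The median log2 fold of the list was -0.52, and 21 of the 28 were lower in both libraries. The 1 that was higher was Spp1, which tumour cells of many kinds secrete. Among all tested genes the median was 0.01, 28.0% were lower in both libraries, and 0.812% were called lower and 0.882% higher. Epcam, an adhesion molecule of epithelial cells (chromosome 17, 87635979 to 87651129), was at 283 and 255 CPM in cells with S100a4, against 435 and 512 CPM in cells without it. The classes did not overlap, and the log2 fold was -0.78 ± 0.09 (edgeR adjusted p = 5.05e-16).

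Keratins, the intermediate filament proteins of epithelia, were lower to differing extents. Krt7 was at 203 and 212 CPM with S100a4 and 331 and 380.0 CPM without it, a log2 fold of -0.75 ± 0.10 (edgeR adjusted p = 2e-11). Krt8 and Krt18, which pair in simple epithelia, had log2 folds of -0.43 ± 0.08 and -0.34 ± 0.06 (adjusted p of 7.62e-05 and 1.66e-05), and Krt18 was still at 888 and 853 CPM in cells with S100a4, against 1077 and 1167 CPM without it. Krt14, a keratin of basal cells, was at 81.6 and 87.3 CPM with S100a4 and 104 and 163 CPM without it (-0.62 ± 0.16, adjusted p = 0.0132), with a log2 ratio of -0.33 in library 1 and -0.86 in library 2. Krt19 was at 22.3 and 43.6 CPM against 48.7 and 43.0 CPM, its classes overlapped, and it did not pass (adjusted p = 0.499).

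Wfdc2, a small secreted protein of glandular epithelia (chromosome 2, 164562413 to 164568510), was at 858 and 731 CPM in cells with S100a4, against 1206 and 1289 CPM in cells without it. The log2 fold was -0.62 ± 0.06 (edgeR adjusted p = 1.64e-20). Lcn2, lipocalin-2, a secreted binder of iron siderophores, was at 26.0 and 41.0 CPM with S100a4 and 67.2 and 57.3 CPM without it (-0.88 ± 0.23, adjusted p = 0.018), with a log2 ratio of -1.36 in library 1 and -0.44 in library 2.

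Rab25, Lsr and Esrp1 were lower with S100a4. Rab25, a small GTPase of apical recycling, was at 28.4 and 27.8 CPM in cells with S100a4, against 64.6 and 58.2 CPM in cells without it, a log2 fold of -1.10 ± 0.25 (edgeR adjusted p = 0.00185). With cells thinned and classes taken from the thinned counts the Rab25 fold was -0.08 and no longer called. Lsr, which places tricellular tight junctions, was at 65.6 and 70.1 CPM with S100a4 and 106 and 108 CPM without it (-0.63 ± 0.17, adjusted p = 0.0244). In both genes the classes did not overlap. Their promoters, shown above, hold 2 and 4 copies of CACCTG or CAGGTG. Esrp1, the splicing regulator of epithelial isoforms, had a log2 fold of -1.21 ± 0.32 (adjusted p = 0.0199) at 14.8 and 19.8 CPM with S100a4 and 45.1 and 36.3 CPM without it.

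Beyond the list, Lad1, an anchoring filament protein, had a log2 fold of -0.63 ± 0.13 (edgeR adjusted p = 0.000304), and Mpzl2, an adhesion protein of epithelia, -0.69 ± 0.17 (adjusted p = 0.00892), which was -0.07 with classes from thinned counts. Cdh1, E-cadherin, was at 37.1 and 27.8 CPM with S100a4 and 44.2 and 60.2 CPM without it, and Cldn3, a claudin of tight junctions, at 48.2 and 56.9 CPM against 72.6 and 89.8 CPM. Both were lower in each library and neither passed, with log2 folds of -0.64 ± 0.25 and -0.60 ± 0.19 and adjusted p of 0.218 and 0.0859.

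**Figure D3:**
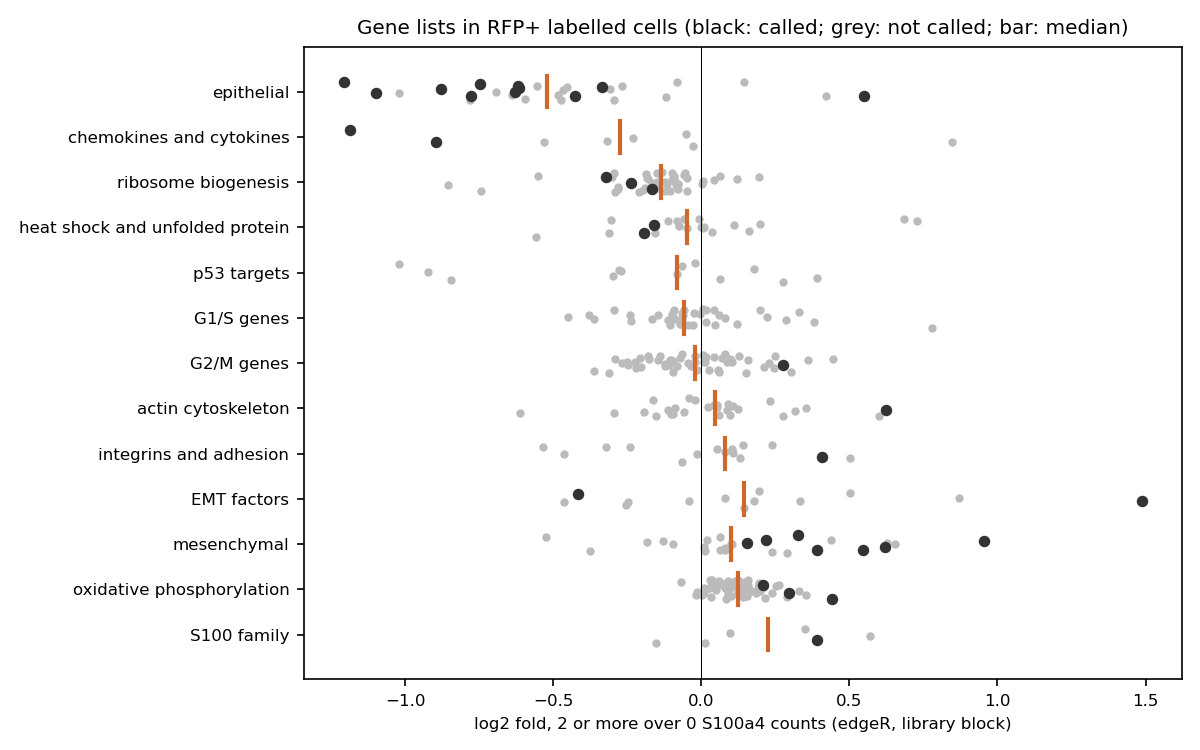
Log2 fold of cells with 2 or more S100a4 counts over cells with 0 (x axis, edgeR with library as a block) for the tested genes of 13 lists in RFP+ labelled cells; black points are called, grey points are not, and the orange bar is the median of the list. The epithelial list lies lowest, with a median of -0.52, and single genes scatter widely in lists of low genes.

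The differences ran on through the S100a4 count. In cells with 0, 1, 2, 3 and 4 or more S100a4 counts, Vim was at 1591, 1909, 2100.1, 2429 and 2841 CPM in library 1 and at 1478, 1904, 2108, 2249 and 2356 CPM in library 2. Vim thus stepped upward at each count in both libraries, also in the cells with exactly 1 count that the comparison left out. Epcam stood at 435, 348, 335, 291 and 193 CPM in library 1 and 512, 358, 368, 204 and 166 CPM in library 2, with 1 step out of order in library 2. Wfdc2 stood at 1206, 1044, 1019, 774 and 675 CPM and at 1289, 1022, 926, 836 and 468 CPM.

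The cells at the high end were few and deep. There were 94 and 106 cells with 4 or more S100a4 counts, with a median of 2013.5 and 2239.5 counts, and 112 and 87 cells with exactly 3. With 3 or more counts set against 0, edgeR called 64 genes higher and 67 lower, and with 1 or more set against 0 it called 39 and 35.

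**Figure D4:**
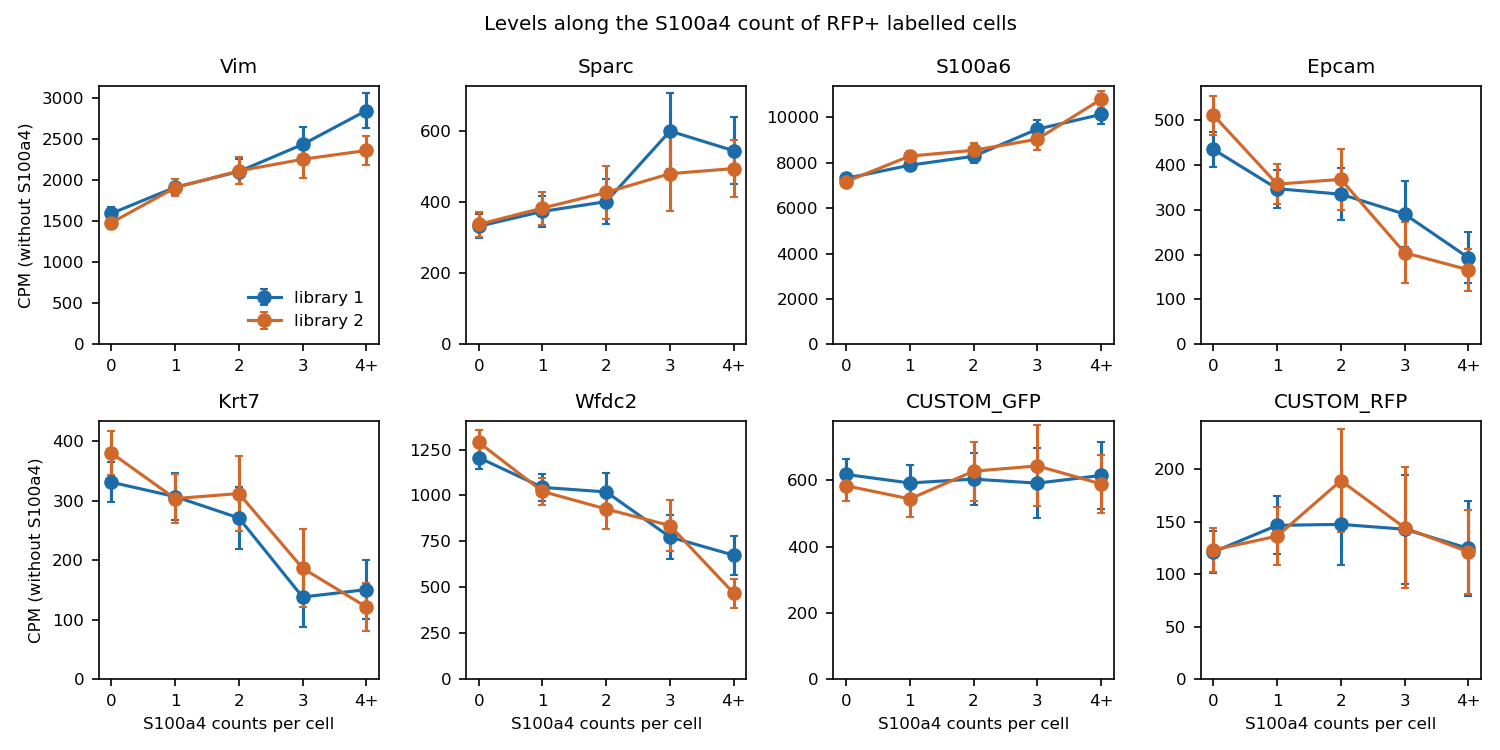
CPM (linear axis from 0, S100a4 left out) of 6 genes and the 2 reporter rows in RFP+ labelled cells with 0, 1, 2, 3 and 4 or more S100a4 counts, 1 line per library; bars are 95% intervals of counting error (normal approximation). From 0 to 4 or more counts Vim, Sparc and S100a6 end higher and Epcam, Krt7 and Wfdc2 lower in both libraries, with single steps of Sparc, Epcam and Krt7 out of order, while CUSTOM_GFP stays between 544 and 643 CPM.

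Thinned to 1000 counts, the same genes were detected in differing shares of cells, with classes taken from raw S100a4 counts. Vim was found in 86.7% and 86.0% of cells with S100a4 (exact Clopper-Pearson intervals of 83.0% to 89.8% and 82.0% to 89.4%), against 74.4% and 70.9% of cells without it (71.0% to 77.6% and 67.2% to 74.4%). Epcam was found in 24.2% and 20.5% of cells with S100a4 (20.2% to 28.6% and 16.5% to 25.1%), against 31.4% and 37.0% of cells without it (28.0% to 35.01% and 33.3% to 40.9%). Unthinned, the shares with a Vim count were 94.7% and 95.3% against 82.9% and 83.0%, and those with an Epcam count 33.4% and 34.5% against 41.8% and 48.6%. The intervals treat cells as independent draws within a library and do not cover spread between libraries. Since no cell type that should lack these genes is among the cells, the share that free RNA in droplets gives was not measured.

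S100a6 was the S100 gene that passed the test. It encodes calcyclin and lies near S100a4 on chromosome 3 (S100a4 at 90603771 to 90606045, S100a6 at 90612882 to 90624181, both on the plus strand, GENCODE M21). S100a6 was at 9116 and 9515 CPM in cells with S100a4, against 7309 and 7169 CPM in cells without it, a log2 fold of 0.39 ± 0.04 (edgeR adjusted p = 9.31e-16). Along the S100a4 count it stood at 7309, 7892, 8285, 9481 and 10129.5 CPM in library 1 and 7169, 8293, 8549.7, 9039 and 10796 CPM in library 2. Of 6 tested S100 genes 1 was higher and none lower, with a median log2 fold of 0.22, which was 0.10 when transcript length was taken into account. Among all tested genes 0.882% were higher.

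The other S100 genes did not pass. S100a10, the partner of annexin A2, was at 1455 and 1470.5 CPM with S100a4 and 1327 and 1465 CPM without it (0.10 ± 0.06, edgeR adjusted p = 0.503), and S100a11 at 789 and 842 CPM against 762 and 890 CPM (0.01 ± 0.06, adjusted p = 0.963). S100a13, which takes part in release of growth factors without a signal peptide, was at 91.5 and 84.6 CPM with S100a4 and 61.1 and 60.2 CPM without it (0.57 ± 0.18, adjusted p = 0.078). S100a3, whose annotated locus overlaps that of S100a4, was too low to test, at 19.8 and 14.5 CPM against 10.6 and 16.2 CPM.

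For proteins that S100A4 is known to bind, and the cytoskeleton they belong to, list medians lay close to that of all tested genes, 0.01. Of 12 tested partner genes 2 were higher, none lower, with a median log2 fold of 0.02. Over all tested genes 0.882% were higher. Myh9, the non-muscle myosin heavy chain that S100A4 binds, was at 106 and 97.9 CPM in cells with S100a4, against 92.0 and 98.4 CPM in cells without it, and did not pass (0.13 ± 0.16, edgeR adjusted p = 0.817). Anxa2, annexin A2, was at 1881 and 1841 CPM with S100a4 and 1664 and 1659.6 CPM without it (0.19 ± 0.05, adjusted p = 0.0244). Myl6, a myosin light chain, was at 549 and 644 CPM with S100a4 and 528 and 493 CPM without it, so that its log2 ratio was 0.07 in library 1 and 0.43 in library 2. Its fitted fold was 0.25 ± 0.07 (adjusted p = 0.0405), and 0.22 with an adjusted p of 0.083 when transcript length was taken into account. Of 28 tested actin cytoskeleton genes, with a median of 0.05, 1 was higher, Arpc3, a subunit of the Arp2/3 complex (0.62 ± 0.17, adjusted p = 0.018, or 0.54 with an adjusted p of 0.0667 with length taken into account). Of 15 integrin and adhesion genes, with a median of 0.08, 1 was higher, Zyx, the focal adhesion protein zyxin (0.41 ± 0.12, adjusted p = 0.0333).

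Of 13 tested transcription factors and regulators of the epithelial to mesenchymal transition 1 was higher and 1 lower, with a median log2 fold of 0.14. All tested genes had a median of 0.01, with 0.882% called higher and 0.812% lower. Twist1, a basic helix-loop-helix factor, was at 21.03 and 41.0 CPM in cells with S100a4, against 11.5 and 10.5 CPM in cells without it. The log2 fold was 1.49 ± 0.39 (edgeR adjusted p = 0.0168), from 17 and 31 counts with S100a4 and 13 and 11 without it. Its log2 ratio was 0.89 in library 1 and 2.005 in library 2. Sox9, a factor of mammary progenitors, was at 137 and 159 CPM with S100a4 and 204 and 199 CPM without it (-0.42 ± 0.12, adjusted p = 0.0419, or -0.38 with an adjusted p of 0.0918 with length taken into account). Zeb1, a repressor of Cdh1, was at 18.6 and 33.1 CPM with S100a4 and 19.5 and 8.59 CPM without it, so library 1 showed no rise (adjusted p = 0.321). Zeb2 was at 30.9 and 34.4 CPM against 24.8 and 21.96 CPM (0.50 ± 0.31, adjusted p = 0.556). Snai1 was too low to test, with 8 and 11 counts in cells with S100a4 and 2 and 10 in cells without it.

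Of 8 tested genes of the chemokine and cytokine list 2 were lower, none higher, with a median log2 fold of -0.28. All tested genes had a median of 0.01, with 0.812% called lower. Ccl5, which attracts T cells (chromosome 11, 83525778 to 83530518), was at 47.0 and 43.6 CPM in cells with S100a4, against 93.8 and 118 CPM in cells without it. That is a log2 fold of -1.19 ± 0.19 (edgeR adjusted p = 3.1e-07), and the classes did not overlap. In thinned cells Ccl5 was called with classes from raw counts but not with classes from thinned counts. Cxcl16, a membrane-bound chemokine, was at 76.7 and 54.2 CPM with S100a4 and 119 and 131 CPM without it (-0.90 ± 0.17, adjusted p = 4.61e-05).

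Ly6a, the surface antigen Sca-1 of mouse progenitor cells (chromosome 15, 74994877 to 74998031), was at 143 and 156 CPM in cells with S100a4, against 289 and 245 CPM in cells without it (-0.81 ± 0.11, edgeR adjusted p = 5.01e-10). The nearby Ly6e, which interferon induces, had -0.25 ± 0.06 (adjusted p = 0.00767). Ly6 genes share sequence, and how reads on shared sequence were counted is not given. Of 14 tested interferon response genes, with a median of 0.11, 1 other was called, Ifi27, which was higher (0.57 ± 0.15, adjusted p = 0.0132, or 0.495 with an adjusted p of 0.0511 with length taken into account). Among all tested genes 1.69% were called.

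Fth1, the ferritin heavy chain that stores iron, was at 5339 and 5699.5 CPM in cells with S100a4, against 4227 and 4115 CPM in cells without it. The log2 fold was 0.43 ± 0.05 (edgeR adjusted p = 8.61e-18), and Fth1 has processed pseudogenes in the mouse, so its count is uncertain in that respect. Its partner Ftl1, the light chain, was at 323 and 419 CPM with S100a4 and 326 and 351 CPM without it, and Tfrc, the transferrin receptor, at 255 and 214 CPM against 268 and 268 CPM. Of 5 tested iron genes 1 was higher and none lower, with a median log2 fold of 0.16 that was -0.46 with classes from thinned counts. The share called higher over all tested genes was 0.882%.

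Many small shifts ran the same way among genes of oxidative phosphorylation and of ribosome assembly. Of 69 tested nuclear genes of oxidative phosphorylation 3 were higher, none lower, and 49 were higher in both libraries, with a median log2 fold of 0.12. Over all tested genes 29.6% were higher and 28.0% lower in both libraries, and 0.882% were called higher and 0.812% lower. Cox8a, a subunit of cytochrome oxidase, was at 430.4 and 537 CPM with S100a4 and 351 and 372 CPM without it (0.44 ± 0.08, edgeR adjusted p = 1.66e-05). Cox6a1 and Atp5h had 0.30 ± 0.08 and 0.21 ± 0.05 (adjusted p of 0.0261 and 0.0168). Of 46 ribosome biogenesis genes 3 were lower, none higher, and 31 were lower in both libraries, with a median of -0.14. They were Rrs1 (-0.32 ± 0.09, adjusted p = 0.0318), Nolc1 (-0.24 ± 0.06, adjusted p = 0.0244) and Ncl, nucleolin (-0.17 ± 0.05, adjusted p = 0.0244). In library 1 alone the log2 ratio was -0.15 for Nolc1 and -0.11 for Ncl, and with classes from thinned counts the fold of Rrs1 was -0.05. The cytosolic chaperones Hsp90aa1 and Hsp90ab1 were lower by similar amounts (-0.19 ± 0.05 and -0.16 ± 0.05, adjusted p of 0.029 and 0.0329), 2 of 21 tested heat shock and unfolded protein genes, whose median was -0.05.

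Fold also moved with transcript length. In 5 groups of like size, from the shortest to the longest of 5523 genes with a GENCODE length, the median log2 fold was 0.08, 0.03, 0.01, -0.03 and -0.07. The higher genes had a median transcript of 1494 bases and the lower genes of 2714 bases, against 2872 bases over all tested genes. With length taken into account in the fit, the median of the oxidative phosphorylation list was 0.05, that of ribosome biogenesis stayed at -0.14, and Cox6a1, Atp5h and Ncl lost their calls (edgeR adjusted p of 0.356, 0.356 and 0.0961). Ribosomal protein genes, a group looked at after its values were seen, were higher in 9 of 79 tested, with a median of 0.10 that was 0.03 with length taken into account. The share called higher over all tested genes was 0.882%. Vim, Sparc, Mgp, Bmp4, S100a6, Epcam, Wfdc2, Krt7 and Ly6a stayed called in that fit, as did 67 of the 98 genes in all.

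Cell cycle genes were called about as rarely as all tested genes, of which 1.69% passed. At that share a list as short as those below may hold no call or 1 without differing from the rest. Of 37 tested G1/S genes none was called, with a median log2 fold of -0.06, and of 55 G2/M genes, with a median of -0.02, 1 was higher, the histone variant H2afz (0.28 ± 0.08, edgeR adjusted p = 0.0333, or 0.21 with an adjusted p of 0.158 with length taken into account). Mki67, the Ki-67 gene of dividing cells, was at 357 and 333 CPM in cells with S100a4, against 334 and 329 CPM in cells without it (0.09 ± 0.09, adjusted p = 0.769). Top2a, topoisomerase II alpha, was at 717 and 584 CPM against 673 and 668 CPM (-0.01 ± 0.07, adjusted p = 0.965). No gene was called among 19 of glycolysis and hypoxia, 13 p53 targets, 12 immediate early genes, 10 genes of class I presentation, 9 annexins and galectins (a list without Anxa2 and Lgals1, which are called and stand in other lists) and 15 tubulin and neuronal cytoskeleton genes, with medians of -0.01, -0.08, 0.03, 0.02, -0.09 and 0.12. Of 15 matrix protease and cathepsin genes 1 was higher, Cst3, the protease inhibitor cystatin C (0.24 ± 0.06, adjusted p = 0.0132, or 0.16 with an adjusted p of 0.157 with length taken into account), and of 8 mitochondrially encoded genes none was called, with medians of 0.02 and 0.10.

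Neither reporter row passed the test between the classes. CUSTOM_RFP was at 139.8 and 153 CPM in cells with S100a4, against 121 and 123 CPM in cells without it, and the log2 fold was 0.29 ± 0.14 (edgeR adjusted p = 0.375). CUSTOM_GFP was at 604 and 616 CPM with S100a4 and 618 and 583 CPM without it, a log2 fold of 0.05 ± 0.07 (adjusted p = 0.845). The CUSTOM_GFP classes overlapped, and the sign differed between the libraries. Those of CUSTOM_RFP did not overlap, with log2 ratios of 0.22 in library 1 and 0.36 in library 2. That was also so for 17.4% of tested genes in the higher direction. Cells were also thinned to 1000 counts, with classes from raw counts. CUSTOM_GFP was then found in 44.8% and 45.8% of cells with S100a4 and in 42.2% and 43.0% of cells without it. CUSTOM_RFP was found in 13.3% and 14.2% against 11.7% and 12.1%.

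S100a4 levels were also taken by reporter row, with no test. In cells with CUSTOM_RFP and no CUSTOM_GFP count, S100a4 was at 542 and 555 CPM of all counts, in cells with CUSTOM_GFP alone at 635 and 688 CPM, in cells with both at 554 and 722 CPM and in cells with neither at 698 and 682 CPM. The order of these 4 groups differed between the libraries. Without the cells that had any CUSTOM_RFP count, edgeR called 22 genes higher and 21 lower, 35 of them among the 98.

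The immune list summed to 79.2 and 64.8 CPM in cells with S100a4, against 78.7 and 63.0 CPM in cells without it, with Lyz2 at 0 and Ptprc at 1 and 0 counts against 1 and 0. Cd14, a receptor of bacterial lipopolysaccharide on myeloid cells, held most of these counts, 51 and 43 with S100a4 and 75 and 49 without it. The endothelial list summed to 6.18 and 5.29 CPM against 7.96 and 13.4 CPM, with Pecam1 and Kdr at 0, and the erythroid list to 0 in both classes. The fibroblast list summed to 17.3 and 10.6 CPM, 14 and 8 counts, in cells with S100a4, and to 6.19 and 5.73 CPM, 7 and 6 counts, in cells without it. With S100a4, 3 and 5 of its 7 measured genes were at 0, and without it 4 and 4, Col1a1 among them. Pdgfrb, a growth factor receptor of fibroblasts and pericytes, made up 9 and 6 of these counts with S100a4 and 3 and 2 without it. The part of such cells in the differences was not tested. Doublets were not called, and without the deepest 5% of cells 46 genes were higher and 33 lower, 68 of them among the 98.

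In the GFP+ labelled libraries the same limits gave 971 and 875 cells with S100a4 and 200 and 129 without it. In a fit of both populations, with 6235 genes tested, 19 genes were higher (0.305%) and 31 lower (0.497%) in GFP+ labelled cells with S100a4. Of the 98 genes called in RFP+ labelled cells, 92 had the same sign there, against 57.7% of all genes, and 26 were called the same way, which is 26 of the 98 and 26 of the 50 called in GFP+ labelled cells. The 6 with the other sign were Il23a, Morc4, Cdc42ep3, Rbm27, Prrc2c and Cdca7, of which Il23a, Morc4 and Prrc2c are named after their values were seen.

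Vim had a log2 fold of 0.57 ± 0.05 in GFP+ labelled cells (edgeR adjusted p = 1.41e-22), Spp1 of 0.64 ± 0.06, Epcam of -0.91 ± 0.14 and Wfdc2 of -0.93 ± 0.09. Of 29 epithelial genes in that fit 7 were lower and 1 higher, with a median of -0.83, and of 32 mesenchymal genes 6 were higher and none lower, with a median of 0.18. Over all genes of that fit 0.305% were called higher and 0.497% lower in GFP+ labelled cells. Emp3, which did not pass in RFP+ labelled cells, had a log2 fold of 1.17 ± 0.23 in GFP+ labelled cells (adjusted p = 0.000164), and the difference between the populations did not pass (-0.52 ± 0.33, adjusted p = 0.938).

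The difference between the populations passed for 3 of 6235 genes (0.0481%), with 317 at an unadjusted p under 0.05. S100a6 was 1 of them: its log2 fold was 0.39 ± 0.04 in RFP+ labelled cells and 0.15 ± 0.04 in GFP+ labelled cells, a difference of 0.23 ± 0.05 (edgeR adjusted p = 0.0363). In GFP+ labelled cells S100a6 was at 8967 and 8941 CPM with S100a4 and 7537 and 8841 CPM without it, so their 2 libraries without S100a4 stood far apart. Without library 2 labelled RFP+ none of the differences passed, and no difference passed in thinned cells or in cells paired by depth.

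**Figure D5:**
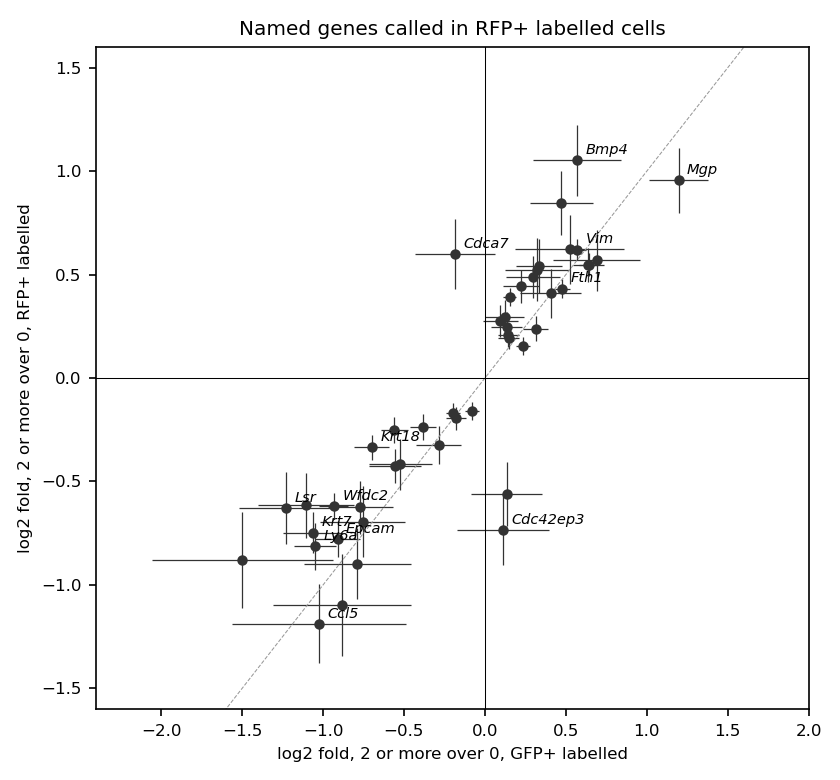
Log2 fold of cells with 2 or more S100a4 counts over cells with 0 in GFP+ labelled cells (x axis) and RFP+ labelled cells (y axis) for the named genes called in RFP+ labelled cells; bars are SE and the dashed line marks equal folds. Most genes lie lower left or upper right, while Cdca7, Cdc42ep3 and Rbm27 do not.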

How the data were processed

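The deposited table holds counts per gene row and cell, whole numbers made by the authors on GRCm38 per the submitters' processing notes. The sources used here do not give the aligner, the counter, its use of strand, the collapse of molecular identifiers or the selection of cells. The table has 16647 gene rows. No cell had a count in 772 of them, 23 are spelled like dates, and 1 name occurs again. Cells were assigned to libraries by their column names, which pool the 2 lanes of a library.

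Counts were summed per library and class of cells, and S100a4 was removed from sums and tests. Genes with at least 20 CPM in either class and at least 20 counts were tested by the edgeR (4.0.16, under R 4.3.3) quasi-likelihood F test with TMM factors, library as a block and Benjamini-Hochberg adjustment at 0.05. Both classes come from the same library, so the library pairs them. An SE is the size of the log2 fold divided by the root of F. The fit has 1 residual degree of freedom and took each dispersion from the trend over genes (common coefficient of variation 0.027), so an SE is not the spread of the gene itself. With 2 libraries an exact paired permutation test of 1 value cannot go under 0.5. Populations were contrasted over all 4 libraries (8 sums). On counts simulated for the RFP+ comparison (5748 genes), 50% of the 1.5-fold and 78.8% of the 2-fold changes were found, with 4 of 130 calls wrong. These counts were drawn with the dispersion that the fit itself had estimated, so they cannot show how many calls on the real sums are wrong.

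Alternatives were no library block, other normalizations and filters, DESeq2 1.42.0, other class limits, cells thinned to 1000 counts, cells paired by depth, cells left out, and, added after the data were seen, an offset for transcript length (GENCODE M21). The naming rule took 28 fixed genes. To these it added, in each direction, the 12 called genes of 100 CPM or more with the largest folds and the same sign in both libraries, gene models and mitochondrial or ribosomal protein transcripts apart. It also added the 4 largest folds of each list among called members of 50 CPM or more. A gene that the rule names is not reported here. Other genes are given as list members, or are said to be named after their values were seen. The cells, the 28 lists and the named genes were chosen with earlier results of these data known. Shares of cells carry exact Clopper-Pearson intervals at 95%.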

Additional observations from a re-analysis of the deposited data

Results flagged for a closer look

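For 3 genes the contrast of cells with against without S100a4 differed between the populations by the test of the difference itself (edgeR, 8 sums, threshold on the adjusted p of 0.05). The log2 difference, RFP+ minus GFP+ labelled, was 0.233 for S100a6, -0.327 for mt-Rnr2 and -0.589 for Cp, with adjusted p of 0.0363, 0.0135 and 0.0363. mt-Rnr2, the large ribosomal RNA of mitochondria, and Cp, ceruloplasmin, were named after their values were seen. In RFP+ labelled cells mt-Rnr2 was at 4526 and 3853 CPM with S100a4 and 4120.5 and 4124 CPM without it, and in GFP+ labelled cells at 2910 and 2489 CPM against 2114 and 2141 CPM. Cp was at 432 and 414 CPM with S100a4 and 491 and 473 CPM without it in RFP+ labelled cells, and at 526 and 509 CPM against 406 and 369 CPM in GFP+ labelled cells. The GFP+ labelled classes without S100a4 held 200 and 129 cells. None of the 3 differences passed in thinned cells or in cells paired by depth, and their cause was not tested.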

How the results depend on the processing

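Against 51 higher and 47 lower genes, edgeR with no replicate block called 31 and 34, and only the first count moved by over 1.5 times. In the next settings both did. DESeq2's Wald test called 4 and 2 (40 genes at an unadjusted p under 0.05), and edgeR with no filter 0 and 0 (560). Thinned to 1000 counts it called 15 and 11 with classes from raw counts and 8 and 5 with classes from thinned counts, which have fewer counts by construction. Without cells with CUSTOM_RFP it called 22 and 21. The other settings gave 34 to 70 higher and 33 to 67 lower genes, and library totals with no TMM turned the split to 43 and 62. In every setting all called genes that were tested kept their direction, 98 of 98, or 88 of 88 with a filter of 50 CPM.

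The 3 genes that differed between populations were 0 with no replicate block, by DESeq2 (18 at an unadjusted p under 0.05), with no filter, in both thinned settings and in cells paired by depth, and 1 with 1 or more S100a4 counts against 0. Leaving out a library gave 0 to 2, with 0 without library 2 labelled RFP+. With 1 library there is no residual degree of freedom, so leaving out a library gave log2 folds with no test: 0.221 to 0.350 for CUSTOM_RFP and -0.0173 to 0.113 for CUSTOM_GFP.

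With libraries kept, single values with a reversed sign were all of rows that were not called: CUSTOM_GFP at -0.00543 with 1 or more against 0 and -0.032 without cells with CUSTOM_RFP, Krt19 at 0.487 and Zeb2 at -0.0236 in thinned cells, Cdh2 at -0.0241, -0.0986 and -0.0817, S100a10 at -0.00696, S100a11 at -0.0151, -0.00163, -0.0324, -0.0462 and -0.117, Myh9 at -0.0115, and Top2a at 0.0724, 0.039 and 0.0404. Without library 1 Krt19 was at 0.0557 and S100a11 at -0.0457, and without library 2 Top2a was at 0.107. The medians of 11 of 23 lists turned sign in at least 1 setting, that of the iron list running between -0.462 and 0.353, while those of the epithelial (-0.863 to -0.363), mesenchymal, oxidative phosphorylation and ribosome biogenesis lists kept theirs. The cause was not tested. Depth limits the tests to genes of 20 CPM or more, and on simulated counts of this depth 50% of 1.5-fold changes were found.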
